A study of Homo sapiens with 4 samples.

Results

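The genes of the ATP-dependent chromatin remodelling complexes were examined in newly made RNA of K562, a chronic myeloid leukaemia cell line with erythroid features. The members were the protein-coding genes whose GENCODE symbol begins with SMARC, ARID1 to ARID5, CHD and a digit, INO80, ACTL6 or DPF1 to DPF3, or is PHF10, which gave 45 of the 60279 gene identifiers in the count table. They fell into 18 SWI/SNF genes, 2 ISWI genes, 9 CHD genes, 6 INO80 genes including the readthrough gene INO80B-WBP1, 3 other SNF2-family ATPase genes and 7 other ARID genes that match the symbols but are not subunits of these 4 complex types. Of the 45 members, 39 had enough reads to be tested. The symbols also matched 9 noncoding genes, which are not members and are described separately.

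Remodellers use the energy of ATP to slide, eject or exchange nucleosomes, and each complex is built around 1 ATPase of the SNF2 family. SWI/SNF complexes contain either SMARCA4 (BRG1) or SMARCA2 (BRM) and mostly open chromatin at promoters and enhancers, ISWI complexes contain SMARCA5 (SNF2H) or SMARCA1 (SNF2L) and space nucleosomes evenly, CHD proteins carry chromodomains and include the NuRD ATPases CHD3, CHD4 and CHD5, and INO80 slides nucleosomes and acts on H2A.Z. In mouse erythroid cells SMARCA4 is known to be needed for opening of the globin locus, and CHD4 in NuRD is known for silencing of the fetal globin genes.

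Transient transcriptome sequencing (TT-seq) reads RNA made during a brief pulse of 4-thiouridine, a uridine analogue whose thiol lets the new RNA be tagged with biotin and pulled down. The 4 libraries came from untreated K562 cells given 1 mM 4-thiouridine for 15 min (2 libraries) or for 5 min (2 libraries), and all received 15 µg of RNA from Drosophila S2 cells, a fly cell line, per 150 µg of total RNA before enrichment. Depth per library was 4339981 to 5051370 human reads, with 318710 and 308978 fly reads in the 15 min libraries, against 897018 and 803914 in the 5 min libraries. Separate cultures are not stated in the labels, so p-values measure library-to-library spread that could be technical only.

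All 7 erythroid markers of the list used as an identity check were tested (GATA1, TAL1, KLF1, TFRC, HBG1, HBG2 and HBE1), and their summed level was 1726 and 1682 CPM (human counts scaled to the TMM effective library size) after 15 min and 2397 and 2611 CPM after 5 min. Of 19 markers of T cells, B cells, monocytes, fibroblasts and epithelial cells, 4 passed the count filter (CD3D, LYZ, CSF1R and EPCAM) and MS4A1 and KRT5 had no read in any library. Their sum was 67.8 and 66.3 CPM after 15 min and 97.2 and 103 CPM after 5 min.

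The starts of 4 members are shown as examples. SMARCA5, the only ISWI gene tested, had the largest loss of share with label time of all tested members. CHD4, which is not shown, came next, ahead of SMARCA4, which had the largest loss in the SWI/SNF group. ARID1A and CHD2 gained share, in calls that were lost under some other settings. Each line holds the 150 bases before the RefSeq start that lies furthest upstream (RefSeq promoter table, build GRCh38.p14, plus strand, 5′ to 3′). Capitals mark the GC box GGGCGG, the element bound by SP and KLF factors, on either strand. CHD2 has none in the stretch shown. The gene start in GENCODE 29 lies before the stretch for SMARCA5, SMARCA4 and ARID1A, and inside it for CHD2.
SMARCA5, chr4:143513552-143513701: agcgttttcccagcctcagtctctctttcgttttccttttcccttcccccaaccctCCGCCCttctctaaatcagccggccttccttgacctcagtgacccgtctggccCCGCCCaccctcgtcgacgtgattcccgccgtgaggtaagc
SMARCA4, chr19:10960880-10961029: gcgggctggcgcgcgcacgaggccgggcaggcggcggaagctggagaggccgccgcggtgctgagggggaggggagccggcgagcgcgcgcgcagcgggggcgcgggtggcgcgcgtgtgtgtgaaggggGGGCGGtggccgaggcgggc
ARID1A, chr1:26695865-26696014: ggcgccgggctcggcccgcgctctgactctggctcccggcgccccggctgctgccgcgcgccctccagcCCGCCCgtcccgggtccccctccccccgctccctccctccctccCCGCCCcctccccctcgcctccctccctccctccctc
CHD2, chr15:92900174-92900323: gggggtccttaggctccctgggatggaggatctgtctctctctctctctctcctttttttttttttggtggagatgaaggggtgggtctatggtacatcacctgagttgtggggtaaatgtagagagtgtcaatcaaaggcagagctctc

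In RefSeq's 300-base windows, which run 250 bases upstream to 50 bases downstream of a start, 36 of the 45 members were found. GGGCGG stood on either strand in 26 of these 36 windows (72.2%), against 44.5% of all 27305 windows, and the median GC content was 65.67% in the members and 58.33% in all windows. The TATA box letters TATAAA stood in 1 of 36 windows (2.78%), against 12% of all. CCGGAAG, the core of ETS factor sites, stood in 5 windows (13.9%), against 10.6% of all. The 27305 windows were not limited to protein-coding genes or to genes with reads. A difference from them need not be particular to the members, and this was not tested. GGGCGG letters were found in 9 of 11 windows of members that lost share, 1 of 2 that gained share and 12 of 18 that did not pass that test. The 3 motifs were searched on both strands, they can overlap each other, and a match is a description of letters only.

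The first comparison asked how much labelled RNA of each member accumulated between the label times on the scale of the fly reads. All 39 tested members rose (adjusted p under 0.05, edgeR quasi-likelihood test), where 98.4% of all 17322 tested genes did, and 0 members fell (also 0 at an unadjusted p under 0.05 and 0 with the DESeq2 Wald test), where 0.0115% of all tested genes did. The median rise of the members was 2.93-fold, beside 3.20-fold over all tested genes and 2.96-fold over the 11547 protein-coding ones. Summed over the members, labelled RNA was 79.9 ± 1.75 reads per 1000 fly reads in the 15 min libraries and 29.4 ± 3.70 in the 5 min libraries (mean ± SD, n = 2 each), a ratio of 2.71. As a share of all human reads, the members took 0.513% ± 0.00163 in the 15 min libraries and 0.552% ± 0.00387 in the 5 min libraries (SD, n = 2 each).

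The ratio of summed labelled RNA, 15 min over 5 min, was taken for each complex, beside 2.91 over all tested genes and 2.87 over the protein-coding ones. It was 1.71 for ISWI, where nearly all reads came from SMARCA5, 2.66 for CHD, 2.76 for SWI/SNF and 3.23 for INO80. The other SNF2 ATPases gave 2.64 and the other ARID genes 2.97. These sums weight long and strongly transcribed genes most and carry no test. Over single members the rise ran between 1.70-fold (SMARCA5) and 4.31-fold (ARID3B), with SMARCA4, CHD4 and CHD3 next to the low end at 1.90-, 1.87- and 2.12-fold. The other end held DPF3, SMARCD3 and INO80E at 4.29-, 4.04- and 3.71-fold.

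**Figure D1:**
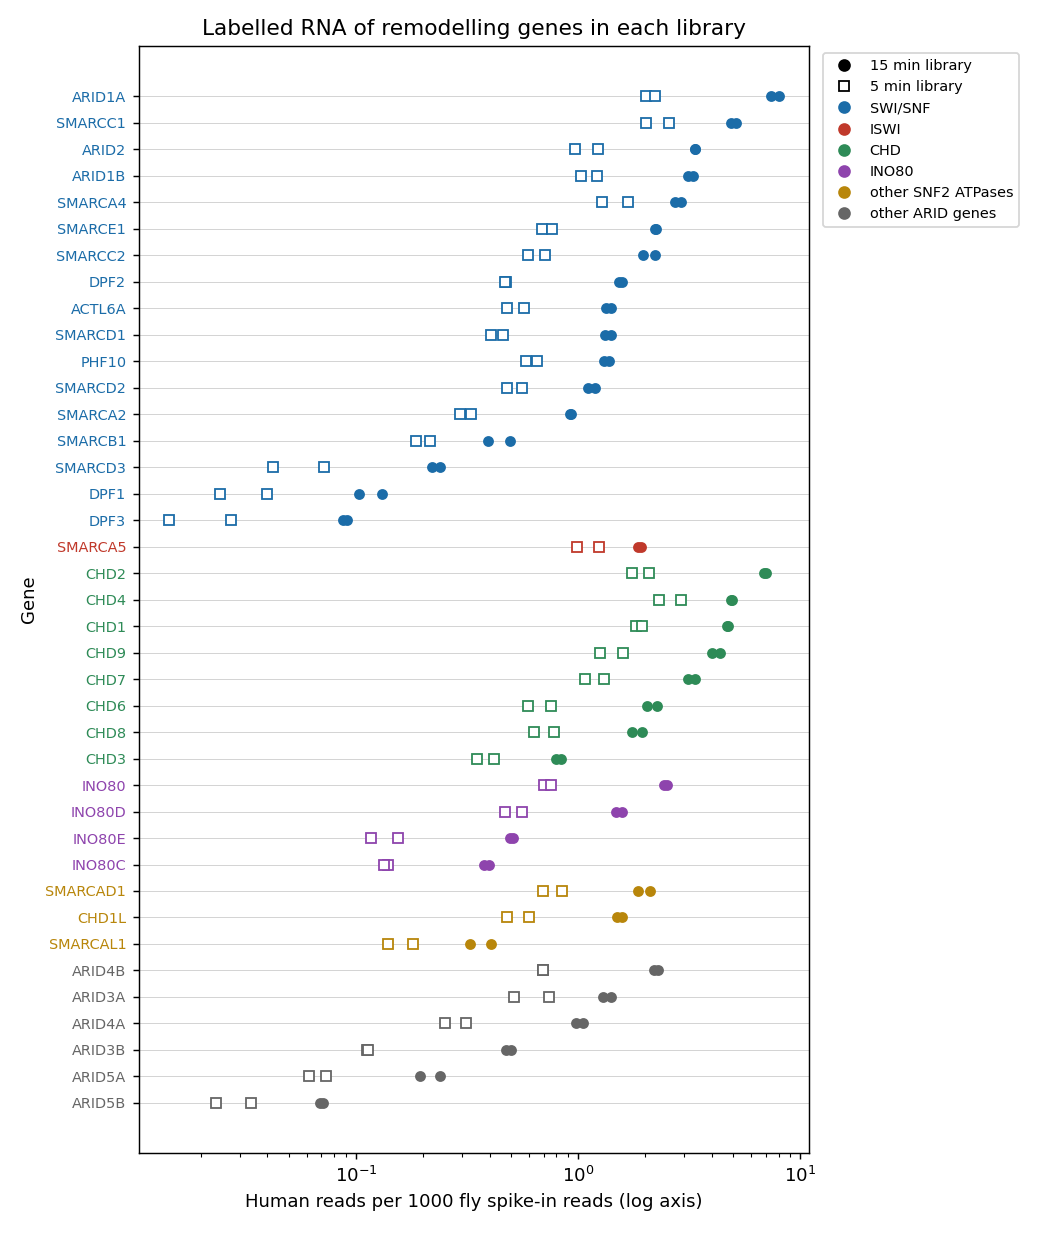
Reads per 1000 fly spike-in reads (log axis) of the 39 tested members in each of the 4 libraries, grouped by complex (filled circles, 15 min; open squares, 5 min). In every row both circles lie right of both squares, as for 99% of all tested genes, and the gap is narrowest for SMARCA5, CHD4 and SMARCA4.

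A gene whose labelled RNA grows in proportion to time would rise by the ratio of the label times, 3. Against this ratio, 8 members rose by less (8.99% of all tested genes and 12.8% of the protein-coding ones did) and 1 by more (11.3% of all tested genes and 7.75% of the protein-coding ones did). The 8 were the ATPase genes SMARCA5, CHD4, SMARCA4 and CHD3, the SWI/SNF subunit genes SMARCC1, SMARCD2 and PHF10, and ARID3A. The strongest departures were those of SMARCA5, at a log2 ratio to the 3-fold line of -0.82 ± 0.168 (SE, adjusted p = 5.27e-05, edgeR), CHD4, at -0.68 ± 0.172 (adjusted p = 0.00134), and SMARCA4, at -0.66 ± 0.169 (adjusted p = 0.00158). ARID3B stood above the line at 0.52 ± 0.200 (adjusted p = 0.0448). None of these 9 calls held under every alternative, and each was lost when either 15 min library was left out. In those fits few of all tested genes were called. Over the 9 alternatives the log2 ratio to the line ranged between -0.97 and -0.64 for SMARCA5 and between -0.83 and -0.51 for CHD4. It ranged between -0.84 and -0.46 for SMARCA4 and between 0.49 and 0.56 for ARID3B. The DESeq2 Wald test called 6 members below the line and 0 above it, where it called 1171 and 778 of all 17322 tested genes. The 5 min libraries held 4.84 and 5.84 human reads per fly read, a difference that this comparison carries in full.

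The share of each gene in the labelled human RNA does not use the fly reads. As in the CPM values, it is the count scaled to the TMM effective library size, and not the plain fraction of human reads. It was lower after 15 min for 15 of the 39 members (21.3% of all tested genes, 30.5% of the protein-coding ones) and higher for 3 (16.8% of all tested genes, 13.7% of the protein-coding ones), and 21 did not pass. In 21 members both 15 min libraries lay below both 5 min libraries (33% of all tested genes, 5104 of the 11547 protein-coding ones). In 7 members they lay above (34.6% of all tested genes, 3147 of the 11547 protein-coding ones). The median log2 change of the members was -0.094, beside 0.029 over all tested genes and -0.085 over the protein-coding ones. The losers were SMARCA5, CHD4, SMARCA4, CHD3, PHF10, ARID3A, SMARCC1, SMARCB1, SMARCD2, SMARCAL1, CHD1, SMARCAD1, ACTL6A, CHD8 and CHD7, and the gainers were ARID1A, CHD2 and ARID3B. Scaling by total human counts in place of TMM factors moved the median of all tested genes to 0.13, a shift of 0.105. The split of the members was then 7 higher and 12 lower. That scaling called 4253 of all 17322 tested genes higher and 2792 lower (2466 and 2676 of the 11547 protein-coding ones). Of the 15 losers 10 passed under all 9 alternatives, and of the 3 gainers none did. Those 10 were SMARCA5, CHD4, SMARCA4, CHD3, CHD1, SMARCC1, SMARCB1, SMARCD2, PHF10 and ARID3A. The DESeq2 Wald test called 0 members higher, where it called 923 of all tested genes and 586 of the protein-coding ones. Each gainer was also lost when some single library was left out.

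**Figure D2:**
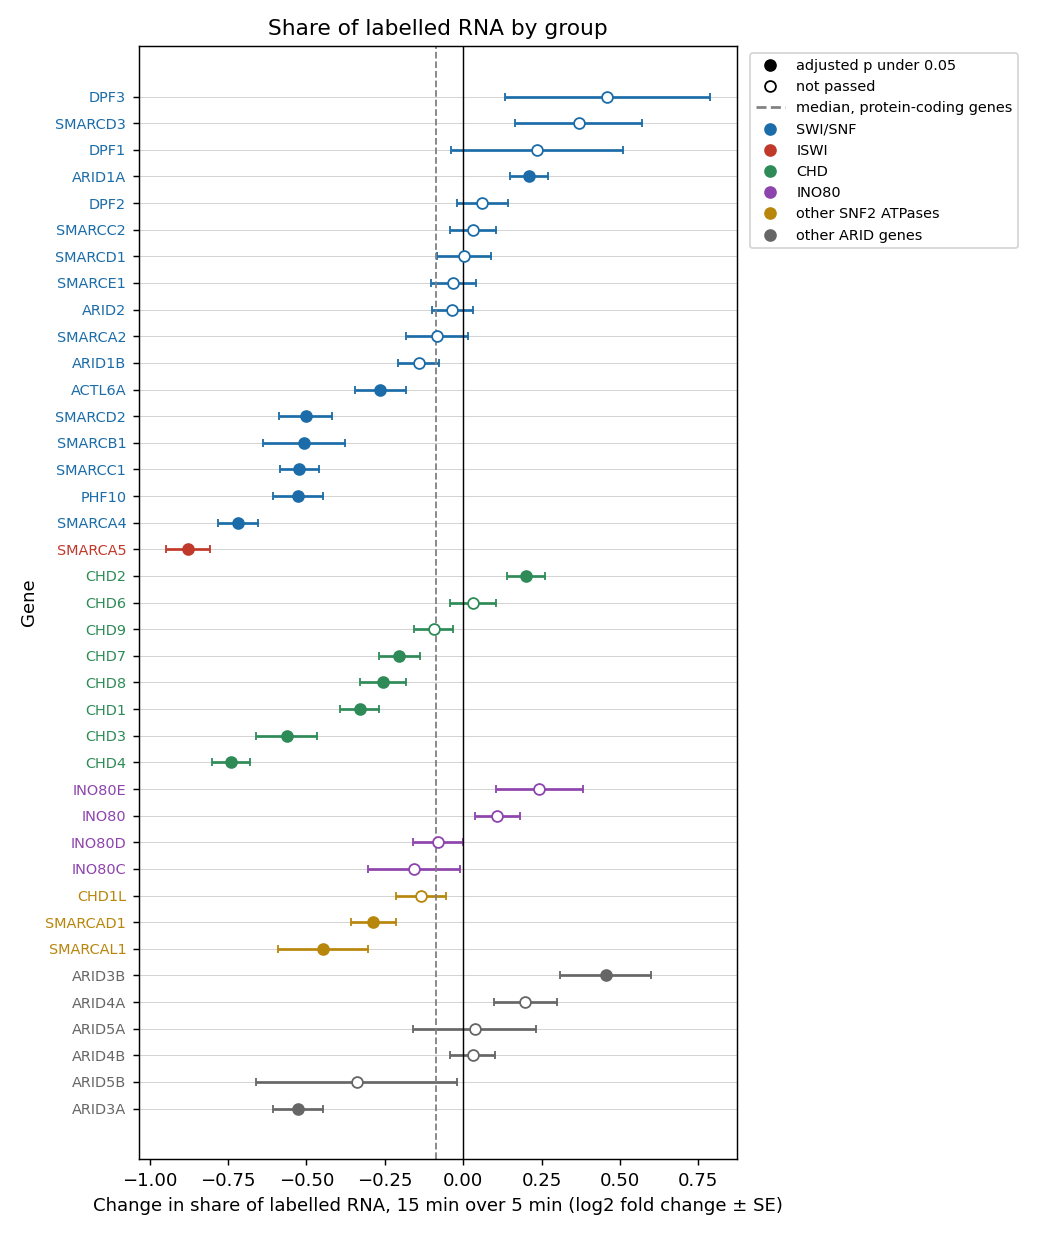
Change in share of labelled RNA for the 39 tested members, 15 min over 5 min, as log2 fold change ± SE from edgeR (filled, adjusted p under 0.05; open, not passed), with the median of protein-coding genes as a dashed line. SMARCA5, CHD4 and SMARCA4 lie furthest left at -0.88, -0.74 and -0.72, and 21 of the 39 are open, among them all 4 tested INO80 genes.

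The SWI/SNF group held 18 genes, of which 17 were tested, 6 lost share (21.3% of all tested genes and 30.5% of the protein-coding ones did), 1 gained share (16.8% and 13.7%) and 10 did not pass. The ATPase gene SMARCA4 (ENSG00000127616, chr19:10960825-11079426, GENCODE 29, hg38) had 2.90 and 2.73 reads per 1000 fly reads after 15 min, against 1.29 and 1.68 after 5 min. Its share was 178 and 173 CPM after 15 min and 276 and 302 CPM after 5 min, so that the label times did not overlap and the 5 min libraries were higher. The share fell by 0.72 ± 0.0648 on the log2 scale (SE, adjusted p = 1.00e-26, edgeR). The alternative ATPase gene SMARCA2 (chr9:1980290-2193624) had 0.922 and 0.926 reads per 1000 fly reads after 15 min, against 0.294 and 0.330 after 5 min. Its share, 56.7 and 58.7 CPM after 15 min beside 63.0 and 59.3 CPM after 5 min, did not pass at a log2 change of -0.084 ± 0.0994 (adjusted p = 0.536).

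Among the core subunits, the scaffold gene SMARCC1 (BAF155, chr3:47585272-47782106) had 5.14 and 4.86 reads per 1000 fly reads after 15 min, against 2.03 and 2.56 after 5 min. It had 316 and 308 CPM after 15 min and 435 and 461 CPM after 5 min, without overlap, and its share fell by 0.52 ± 0.0609 (log2, adjusted p = 3.21e-16). Its paralogue SMARCC2 (BAF170) did not pass, at 0.031 ± 0.0739. SMARCB1 (BAF47), the subunit that binds the acidic patch of the nucleosome and is lost in rhabdoid tumours, fell by 0.51 ± 0.131 (adjusted p = 0.000561). Some 17.7% of its annotated exon length is shared with DERL3 on the other strand, and the strand setting of the counting is not given, so its reads are uncertain. SMARCE1 (BAF57) stood at -0.032 ± 0.0721 and SMARCD1 (BAF60A) at 0.0033 ± 0.0853, and neither passed. SMARCD2 (BAF60B), known for its role in granulocyte formation, fell by 0.50 ± 0.0851 (adjusted p = 4.29e-08).

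The actin-related subunit gene ACTL6A (BAF53A) had 1.34 and 1.40 reads per 1000 fly reads after 15 min, against 0.478 and 0.573 after 5 min. Its share was 82.5 and 88.9 CPM after 15 min and 102 and 103 CPM after 5 min. This loss, -0.26 ± 0.0821 (adjusted p = 0.00498, edgeR), no longer passed with scaling by total human counts (adjusted p = 0.112, edgeR) or with the DESeq2 Wald test (adjusted p = 0.106). Without 15 min replicate 1 the log2 change was -0.22, and the call was lost there too. The neuronal paralogue ACTL6B had 9 and 8 reads after 15 min and 4 and 12 reads after 5 min and was not tested.

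Of the 5 subunit genes named next, which set apart the SWI/SNF subtypes, ARID1A and PHF10 passed the share test. ARID1A (ENSG00000117713, chr1:26693236-26782110), the defining subunit of canonical BAF together with ARID1B, had 8.02 and 7.36 reads per 1000 fly reads after 15 min, against 2.02 and 2.21 after 5 min. Its share was 493 and 467 CPM after 15 min and 432 and 398 CPM after 5 min, again without overlap, and rose by 0.21 ± 0.0604 (log2, adjusted p = 0.00216). That call was lost with the DESeq2 Wald test (adjusted p = 0.0610), without 15 min replicate 1 (0.128) and without 5 min replicate 2 (0.175). ARID1B did not pass, at -0.14 ± 0.0654 (adjusted p = 0.0718), and neither did ARID2, the PBAF subunit, at -0.035 ± 0.0653. PHF10 (BAF45A), the PHD finger subunit of PBAF, fell by 0.53 ± 0.0799 (adjusted p = 5.89e-10), while DPF2 (BAF45D), which takes its place in canonical BAF, stood at 0.061 ± 0.0819 and did not pass. The differences between ARID1A and ARID1B or between PHF10 and DPF2 are given as ratios within libraries further on.

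Low-level members of the group were SMARCD3, DPF1 and DPF3, which are known from heart, muscle and nerve. SMARCD3 had 0.220 and 0.239 reads per 1000 fly reads after 15 min, against 0.0424 and 0.0721 after 5 min, and its share change of 0.37 ± 0.202 did not pass. DPF1 stood at 0.24 ± 0.274 and DPF3 at 0.46 ± 0.326. None of the 3 passed, with standard errors of 0.202 to 0.326 beside 0.0609 for SMARCC1. With scaling by total human counts SMARCD3 passed at 0.47 ± 0.203 (adjusted p = 0.0479).

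In the ISWI group nearly all reads came from SMARCA5 (ENSG00000153147, chr4:143513463-143557486). It had 1.87 and 1.93 reads per 1000 fly reads after 15 min, against 0.988 and 1.24 after 5 min. Its share was 115 and 122 CPM after 15 min and 212 and 224 CPM after 5 min. Both 15 min libraries thus lay far below both 5 min libraries, and the share fell by 0.88 ± 0.0696 (log2, adjusted p = 2.69e-34, edgeR), the largest change of share among the 39 tested members and one that ranged between -0.95 and -0.77 over the 9 alternatives. SMARCA1, its X-linked paralogue, had 8 and 6 reads after 15 min and 7 and 3 reads after 5 min and was not tested.

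Of the 9 CHD genes 8 were tested, of which 5 lost share (21.3% of all tested genes and 30.5% of the protein-coding ones did), 1 gained share (16.8% and 13.7%) and 2 did not pass. The NuRD ATPase gene CHD4 (ENSG00000111642, chr12:6570082-6614524) had 4.87 and 4.93 reads per 1000 fly reads after 15 min, against 2.32 and 2.91 after 5 min. Its share was 299 and 312 CPM after 15 min and 498 and 523 CPM after 5 min, without overlap, and fell by 0.74 ± 0.0609 (log2, adjusted p = 7.88e-32). An annotated protein-coding gene on the same strand, AC006064.6, shares 46.9% of the annotated exon length of CHD4, so its count could lose reads to that gene. CHD3, the paralogous NuRD ATPase gene, had 0.841 and 0.793 reads per 1000 fly reads after 15 min, against 0.352 and 0.418 after 5 min, and its share fell by 0.56 ± 0.0973 (adjusted p = 8.26e-08). CHD5, the nerve-enriched NuRD ATPase, had 2 and 2 reads after 15 min and 4 and 6 reads after 5 min and was not tested.

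CHD1 and CHD2, the related ATPases that act on nucleosomes within transcribed genes, moved apart. CHD1 (chr5:98853985-98928957) had 4.69 and 4.73 reads per 1000 fly reads after 15 min, against 1.82 and 1.94 after 5 min, and 288 and 300 CPM after 15 min, against 389 and 350 CPM after 5 min. Its share fell by 0.33 ± 0.0613 (log2, adjusted p = 6.84e-07). CHD2 (ENSG00000173575, chr15:92900189-93028005) had 7.00 and 6.86 reads per 1000 fly reads after 15 min, against 1.75 and 2.10 after 5 min, and 430 and 435 CPM after 15 min, against 375 and 377 CPM after 5 min. Neither gene's libraries overlapped between label times. The share of CHD2 rose by 0.20 ± 0.0606 (adjusted p = 0.00348), a call lost with the DESeq2 Wald test (adjusted p = 0.0672), without 5 min replicate 1 (0.0779) and without 15 min replicate 2 (0.0717). CHD2 shares 10.2% of its annotated exon length with AC013394.1, a protein-coding gene on the same strand, so its count is uncertain too.

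The third CHD subfamily holds CHD6 to CHD9. CHD8, a gene recurrently mutated in autism and a regulator of beta-catenin targets, had 1.95 and 1.75 reads per 1000 fly reads after 15 min, against 0.631 and 0.781 after 5 min. Its share fell by 0.26 ± 0.0743 (log2, adjusted p = 0.00254), and so did that of CHD7, the CHARGE syndrome gene, by 0.20 ± 0.0650 (adjusted p = 0.00644). With scaling by total human counts the adjusted p was 0.0958 for CHD8 and 0.225 for CHD7 (edgeR), and with the DESeq2 Wald test it was 0.0766 and 0.0853, so that neither passed. The log2 change of CHD7 was -0.20 without 15 min replicate 2 and -0.20 without 5 min replicate 2, and its call was lost in both settings. CHD6 and CHD9 did not pass, at 0.031 ± 0.0732 and -0.094 ± 0.0627.

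Of the 6 INO80 genes 4 were tested and 0 passed the share test in either direction, with 0 at an unadjusted p under 0.05 and 0 in the DESeq2 Wald test. Over all tested genes 21.3% lost share and 16.8% gained it, and over the protein-coding ones 30.5% and 13.7%. Most genes thus did not pass, and 4 genes are too few to set INO80 apart. The ATPase gene INO80 (ENSG00000128908, chr15:40978880-41116354) had 2.44 and 2.51 reads per 1000 fly reads after 15 min, against 0.703 and 0.755 after 5 min. Its share was 150 and 159 CPM after 15 min and 151 and 136 CPM after 5 min, so that the label times overlapped on this TMM scale. Its log2 change was 0.11 ± 0.0711 (adjusted p = 0.225). The subunit gene INO80D had 1.58 and 1.48 reads per 1000 fly reads after 15 min, against 0.468 and 0.562 after 5 min, with a share change of -0.080 ± 0.0808. INO80E had 0.511 and 0.492 after 15 min, against 0.117 and 0.154 after 5 min, with a share change of 0.24 ± 0.140, and INO80C stood at -0.16 ± 0.147. Scaling by total human counts, which moves all genes up, called 2 of the 4 higher, where it called 4253 of the 17322 tested genes. INO80 then stood at 0.21 (adjusted p = 0.00963, edgeR). As a plain percentage of human reads the 6 genes summed to 0.0312 and 0.0320 after 15 min. After 5 min this sum was 0.0296 and 0.0276, without overlap.

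The last 2 INO80 members had few or no reads. INO80B, the zinc-finger subunit gene, had 13 and 7 reads after 15 min and 3 and 5 reads after 5 min. INO80B-WBP1, a readthrough into the neighbouring WBP1, had 0 reads in all 4 libraries. Of its 2040 annotated exon bases, 1096 are shared with INO80B and 944 with WBP1 on the same strand. If reads in overlapping genes were dropped, its 0 reads set no upper limit on its level. INO80B shares 1096 of its 1522 annotated exon bases with INO80B-WBP1 on the same strand, so that a counter that drops reads in overlapping genes would miss most of its reads. The level of both is therefore uncertain. ARID3C also had 0 reads in all 4 libraries, which allows up to 3 reads per library.

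Among the other SNF2 ATPase genes 2 of 3 lost share (30.5% of the protein-coding genes did). SMARCAD1, which acts in DNA end resection and in silencing of heterochromatin, had 1.85 and 2.11 reads per 1000 fly reads after 15 min, against 0.696 and 0.848 after 5 min, and its share fell by 0.29 ± 0.0727 (log2, adjusted p = 0.000433). SMARCAL1, an annealing helicase of stalled replication forks, had 0.326 and 0.408 after 15 min, against 0.139 and 0.180 after 5 min, and its share fell by 0.45 ± 0.144 (adjusted p = 0.00698). Neither passed with the DESeq2 Wald test (adjusted p = 0.0513 for SMARCAD1 and 0.135 for SMARCAL1). Without 15 min replicate 1 their log2 changes shrank to -0.18 and -0.28, and without 5 min replicate 2 that of SMARCAL1 was -0.39. The calls were lost in these settings as well. CHD1L (ALC1), a remodeller switched on by poly(ADP-ribose), had 1.58 and 1.50 reads per 1000 fly reads after 15 min, against 0.479 and 0.602 after 5 min, and its share change of -0.13 ± 0.0799 did not pass.

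Of the 7 other ARID genes, which encode DNA-binding proteins outside SWI/SNF, 6 were tested, with 1 higher (13.7% of the protein-coding genes), 1 lower (30.5% of them) and 4 not passed. ARID3A (Bright), an activator of immunoglobulin heavy chain transcription, had 1.41 and 1.29 reads per 1000 fly reads after 15 min, against 0.513 and 0.738 after 5 min, and its share fell by 0.53 ± 0.0797 (log2, adjusted p = 5.42e-10). Its paralogue ARID3B moved the other way: it had 0.499 and 0.476 after 15 min, against 0.113 and 0.113 after 5 min, and its share rose by 0.45 ± 0.146 (adjusted p = 0.00686). The rise of ARID3B did not pass with the DESeq2 Wald test (adjusted p = 0.144) or without 15 min replicate 1 (0.0676), 15 min replicate 2 (0.0504) or 5 min replicate 2 (0.172).

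ARID4A and ARID4B encode subunits of SIN3 histone deacetylase complexes. ARID4B had 2.30 and 2.19 reads per 1000 fly reads after 15 min, against 0.697 and 0.697 after 5 min, with a share change of 0.030 ± 0.0725. ARID4A had 1.05 and 0.984 after 15 min, against 0.253 and 0.313 after 5 min, with a share change of 0.20 ± 0.0995. Neither passed, and nor did ARID5A at 0.037 ± 0.196 or ARID5B at -0.34 ± 0.320.

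Levels can be compared between genes only per length, here as reads per kilobase of annotated exon per 100000 fly reads, averaged over the 4 libraries. SMARCC1 stood highest at 47.7, followed by CHD1 at 31.6, CHD1L at 30.8, ARID1A at 30.8, CHD4 at 29.6, CHD2 at 26.1 and ACTL6A at 25.8. The label times span most of the range of each gene: CHD1 had 44.9 and 45.3 after 15 min and 17.4 and 18.6 after 5 min, while ARID1A had 50.4 and 46.2 after 15 min and 12.7 and 13.9 after 5 min. The order of CHD1 and ARID1A thus turned between the label times, and the places among these genes are not a fixed order. INO80 had 22.8, SMARCA5 18.0, SMARCA4 13.6 and SMARCA2 3.32. The length used matters: with the longest transcript as length SMARCC1 had 57.2, ARID1A 57.1, CHD4 56.3 and ACTL6A 49.9, so that SMARCC1, ARID1A and CHD4 lay close together. With that length SMARCA4 had 37.1 and ARID1B 20.0, in place of 4.85.

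Ratios between related members within a library need no scaling between libraries, and 10 pairs with both genes tested were compared. In each pair the label times did not overlap, but how often other gene pairs do so was not counted. For the share of single genes, the label times did not overlap in 67.6% of all tested genes and 71.5% of the protein-coding ones. Some pairs share a gene (SMARCD2 or ARID1A), so the 10 are not independent. The exact permutation test gave p = 0.333 for all 10 (two-sided, also 0.333 after adjustment), the smallest that 6 arrangements of 4 libraries allow. SMARCA4 exceeded SMARCA2 by 3.59-fold per kilobase after 15 min and 5.56-fold after 5 min, a log2 difference of -0.63. SMARCC1 exceeded SMARCC2 by 2.68-fold after 15 min and 3.92-fold after 5 min, and SMARCD2 exceeded SMARCD3 by 6.98-fold after 15 min and 13.0-fold after 5 min. SMARCD1 stood below SMARCD2 at both label times, at 0.862-fold after 15 min and 0.607-fold after 5 min.

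Other pairs separate the subtypes of a complex. ARID1A exceeded ARID1B by 6.73-fold after 15 min and 5.27-fold after 5 min (log2 difference 0.35), and ARID2 by 1.74-fold after 15 min and 1.47-fold after 5 min. DPF2 stood at 0.828 of PHF10 after 15 min and 0.549 after 5 min, a log2 difference of 0.59. CHD4 exceeded CHD3 by 4.61-fold after 15 min and 5.20-fold after 5 min, and CHD8 stood at 0.463 of CHD7 after 15 min and 0.481 after 5 min, the smallest difference of the 10 pairs (-0.052). CHD1 and CHD2 stood at 1.10 after 15 min and 1.59 after 5 min (log2 difference -0.53). Which of CHD1 and CHD2 was higher depended on the length used: averaged over the libraries CHD1 stood at 1.33 of CHD2 per kilobase of merged exons and at 0.944 per kilobase of the longest transcript. That length also moved the mean ratio over the libraries to 2.68 in place of 5.96 for ARID1A over ARID1B, 1.94 in place of 3.24 for SMARCC1 over SMARCC2, 6.10 in place of 9.54 for SMARCD2 over SMARCD3 and 0.795 in place of 0.472 for CHD8 over CHD7, while it leaves the differences between label times as they are.

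**Figure D3:**
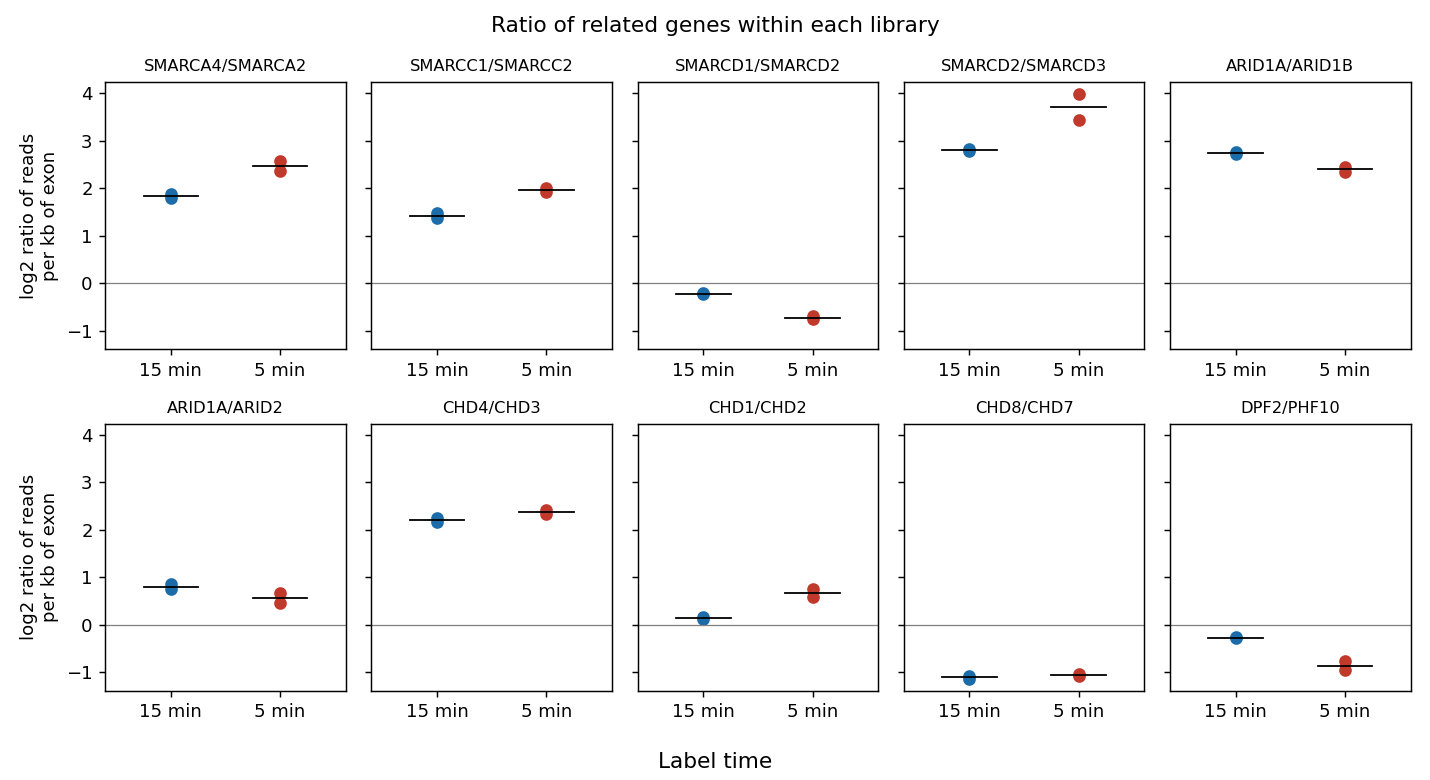
Log2 ratio of reads per kilobase of exon for 10 pairs of related members, with each library as a point, 15 min left of 5 min, and the mean of each label time as a bar. The ratio of SMARCA4 to SMARCA2 is 1.84 after 15 min and 2.47 after 5 min on this log2 scale. The points of the label times are separate in every panel, with no count made for other gene pairs.

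Proteins that join these ATPases but do not match the symbol rule gave a view of the rest of each complex. Over all tested genes 21.3% lost share and 16.8% gained it, and over the protein-coding ones 30.5% and 13.7%. Of 12 NuRD partners of CHD3 and CHD4, 9 lost share, 0 gained it (also 0 at an unadjusted p under 0.05 and 0 in the DESeq2 Wald test) and 3 did not pass, with a median log2 change of -0.37. They included the deacetylase gene HDAC2, which fell by 0.48 ± 0.0639 (204 CPM after 15 min and 285 CPM after 5 min), MTA2, a scaffold of NuRD, which fell by 0.36 ± 0.0661, and the histone chaperone gene RBBP4, which fell by 0.48 ± 0.0617. CHD4 itself thus stood below the lowest of its partners, RBBP4.

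Of 11 ISWI partners 7 lost share (30.5% of the protein-coding genes did), 0 gained it (1 at an unadjusted p under 0.05, 0 in the DESeq2 Wald test) and 4 did not pass, with a median of -0.21. RBBP4 and RBBP7, which are also in the NuRD list, fell by 0.48 ± 0.0617 and 0.39 ± 0.0682, and BAZ1B, the partner of SMARCA5 in the WICH complex, fell by 0.20 ± 0.0605. All 11 lay above SMARCA5. Of 11 SWI/SNF partners 3 lost share (30.5% of the protein-coding genes), 2 gained it (13.7% of them) and 6 did not pass, with a median of 0.069. BRD9, the bromodomain subunit of noncanonical BAF, rose by 0.54 ± 0.0695 (197 CPM after 15 min and 136 CPM after 5 min), and BCL7A rose by 0.30 ± 0.113. PBRM1, the polybromo subunit of PBAF, fell by 0.33 ± 0.0877, and ACTB, whose actin is also a cytoskeletal protein, fell by 1.35 ± 0.0624 (596 CPM after 15 min and 1517 CPM after 5 min).

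Of 18 partners in the INO80, SRCAP and TIP60 complexes 8 lost share (30.5% of the protein-coding genes), 1 gained it (13.7% of them) and 9 did not pass, with a median of -0.17. RUVBL2, an AAA+ ATPase shared by all 3 complexes, fell by 0.97 ± 0.0784 (adjusted p = 5.21e-33, edgeR), the deubiquitinase gene UCHL5 fell by 0.59 ± 0.0664, and DMAP1, of SRCAP and TIP60, rose by 0.69 ± 0.107 (adjusted p = 1.71e-09). The 4 tested INO80 members lay between -0.16 and 0.24. Of 11 SNF2 ATPases of other families 5 lost share (30.5% of the protein-coding genes), 0 gained it (1 at an unadjusted p under 0.05, 0 in the DESeq2 Wald test) and 6 did not pass. HLTF, a ubiquitin ligase of replication forks, fell by 0.60 ± 0.0694, and BTAF1, which removes TBP from DNA, fell by 0.30 ± 0.0746.

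Some noncoding matches lie on or share sequence with members. SMARCA5-AS1 overlaps SMARCA5 on the other strand and had 57 and 54 reads after 15 min and 25 and 26 reads after 5 min. Its share rose by 0.90 ± 0.251 (log2, adjusted p = 0.00152, edgeR), the opposite direction to SMARCA5. The 2 genes share 630 of 8385 annotated exon bases of SMARCA5, and without a known strand setting reads there cannot be told apart. INO80-AS1 had 34 and 40 reads after 15 min and 20 and 28 reads after 5 min and did not pass (0.41 ± 0.283). The remaining 7 were pseudogenes of SMARCE1, of which SMARCE1P1 had 49 and 63 reads after 15 min and 46 and 27 reads after 5 min. Their likeness to SMARCE1 was not measured, so the count of SMARCE1 itself is uncertain by any reads that such copies take. SMARCE1 also shares 19.8% of its annotated exon length with AC073508.2 on the same strand, ARID4B 14.5% with RBM34 on the same strand, and INO80E 18.8% with HIRIP3 on the other strand, which makes these counts uncertain too.

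Members were longer than the typical gene: the median genomic span of the 39 tested members was 70.6 kb, beside 17.6 kb over all tested genes and 31.0 kb over the protein-coding ones. Within the members the log2 change of share had a Pearson r of 0.058 with log2 span and -0.34 with log2 reads per kilobase (39 genes). Over the 11547 protein-coding genes these values were -0.16 and -0.20. They are correlations across genes that share the same libraries, and are given as a description.

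The authors' deposited table gives 1 production rate per gene, without a unit or error, for 38 of the 45 members among 11777 genes. In the authors' deposited table ARID1A had the highest rate of the members, 0.0748, at the 95.0th percentile of all genes with a rate. It was followed in that deposited table by CHD1 at 0.0557, SMARCC1 at 0.0511, CHD4 at 0.0495, SMARCA5 at 0.0444 and CHD2 at 0.0426. The authors' deposited rates were 0.0201 for SMARCA4 and 0.00991 for SMARCA2, 0.0229 for INO80 and 0.0163 for CHD8. The median member lay at the 65.4th percentile of the deposited rates. The lowest deposited rates were those of SMARCA1, 0.000323 (4.19th percentile), and SMARCD3, 0.000880 (9.42nd percentile).

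The deposited rates followed the level of labelled RNA per kilobase over the 37 tested members with a rate (Pearson r 0.83 and Spearman rho 0.81 on log2 values), as over 9774 protein-coding genes (r 0.89, rho 0.90). These are correlations across genes, and rate and level may come from the same libraries. Some members stood away from this relation. CHD1L lay at the 90.0th percentile of level but the 28.8th percentile of rate, and with the longest transcript as length it lay at the 85.2nd percentile of level. SMARCE1 lay at the 49.7th percentile of level and the 28.6th of rate. ARID1B lay at the 36.3rd percentile of level and the 81.3rd of rate, but with the longest transcript its level moved to the 70.0th percentile.

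**Figure D4:**
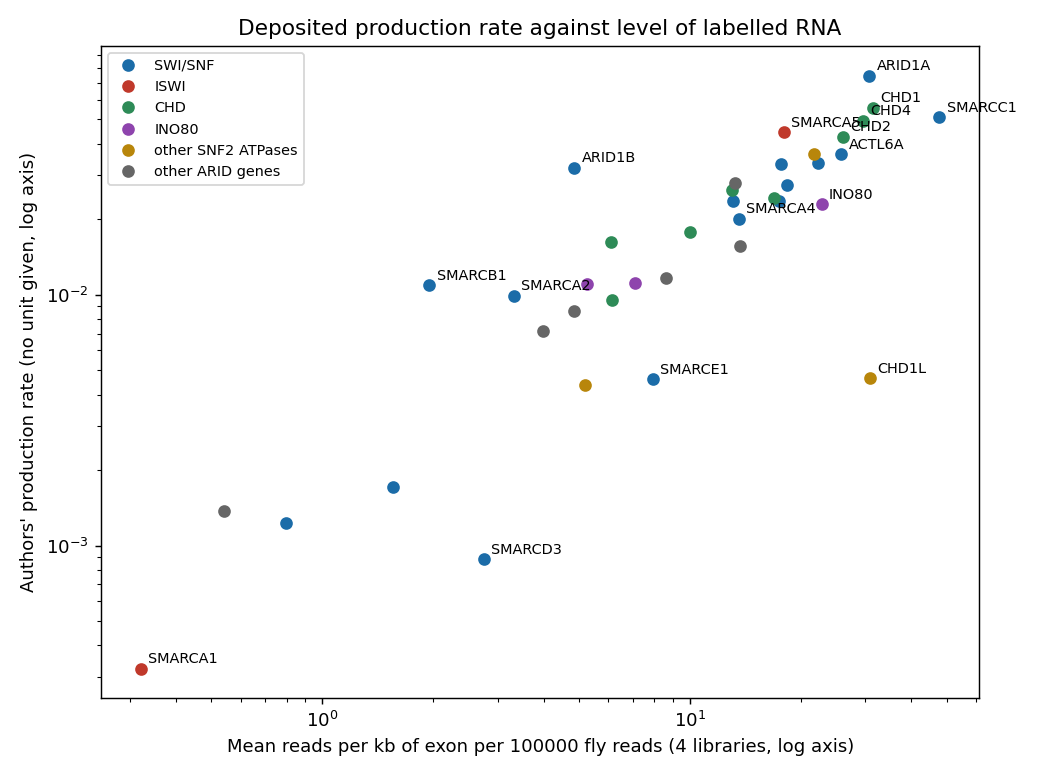
Authors' deposited production rate (no unit given, log axis) against mean reads per kilobase of exon per 100000 fly reads over the 4 libraries (log axis), 1 point per member with a rate, coloured by complex. ARID1A is highest at a rate of 0.0748, SMARCA1 is lowest at 0.000323, and CHD1L lies below the other members of its level at 0.00464.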

How the data were processed

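Values used here are the raw counts of reads per gene that the authors deposited for each library, human and fly in separate tables, and the authors' deposited production rate. The authors' deposited rates, 1 score per gene without replicates, are a synthesis rate per the file headers, which name neither unit nor method. Tools named in the submitters' processing notes are edgeR, featureCounts, Subread 2.0.1, STAR 2.7 and bcl2fastq 2.17.1.14, with builds hg38 and dm6. The sources used here do not give their order, the feature counted or the strand setting.

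GENCODE 29, on that human build, supplied symbols, positions and exon lengths and held 56590 of the 60279 identifiers. Counts were tested over 17322 genes (filterByExpr, minimum count 10) with edgeR 4.0.16 (robust quasi-likelihood, two-sided, Benjamini-Hochberg over all tested genes, threshold 0.05) and a single term for label time. Library sizes were fly totals for accumulation, the same with an offset for the ratio of label times for the departure, and TMM effective sizes for share and CPM. Each SE was derived from the F statistic. The biological coefficient of variation was 4.08%. Chi-square per degree of freedom between replicates was 1.70 for 15 min and 1.55 for 5 min, above sampling noise, so each library counted once. Floors cover counting error only, since molecular identifiers are not given. In simulated counts over 17301 genes, 98 genes had a log2 change of size 1 and 99 had 0.5. The share test called 78.6% and 50.5% of them. All genes were given the same fixed dispersion. In the data far more genes were called, so these percentages need not hold for the data. R 4.3.3, DESeq2 1.42.0 and limma 3.58.1 were used.

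Named in full were the ATPases and, in each group, the 3 highest levels per length and the 2 smallest p in each direction of share. For each partner list these were the highest level and the 2 smallest p in each direction. Members, lists and tests were chosen with earlier results of these data known. A few cell type markers of the identity check are not reported here and were left out of its sums.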

Additional observations from a re-analysis of the deposited data

How the results depend on the processing

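Under the 9 alternatives of each fitted comparison (other scaling, DESeq2 in place of edgeR, no filter on low counts, a replicate block, and each library left out in turn), the rise of all 39 tested members on the fly scale held. Members above the 3-fold line, 1 in the analysis reported, were 0 with TMM sizes or DESeq2 size factors of fly genes and with the DESeq2 Wald test. They were also 0 with no filter and with the replicate block. Members below it, 8 in the analysis reported, were 6 with the DESeq2 Wald test, 5 with no filter and 3 with the replicate block. The DESeq2 Wald test called 778 of the 17322 tested genes above the line and 1171 below it. For the other settings the count over all genes is not given. All 9 calls were lost when either 15 min library was left out, where few of all tested genes were called. Members with a higher share, 3 in the analysis reported, were 7 with total human counts and 0 with the DESeq2 Wald test. These settings called 4253 and 923 of the 17322 tested genes higher. Those with a lower share, 15, were 12 with total human counts, 10 with the DESeq2 Wald test and 16 with the replicate block. These settings called 2792, 2370 and 3878 of the tested genes lower. Calls in both directions were also lost with 1 library left out. The causes were not tested. Replicates 1 and 2 of the label times shared only a number (correlation of deviations 0.0487), and the replicate block added ARID1B (adjusted p = 0.0314) to the lower shares. Share changes that did not pass turned sign as follows: with total human counts ARID2 (0.070), SMARCE1 (0.073), SMARCA2 (0.021), CHD9 (0.011) and INO80D (0.025); SMARCD1 with DESeq2 size factors (-0.0080), the DESeq2 Wald test (-0.0074) and no filter (-0.0060); and with 1 library left out SMARCD1 (-0.084 to 0.059), SMARCC2 (-0.054 to 0.078), DPF2 (-0.083 to 0.17), CHD6 (-0.049 to 0.074), ARID4B (-0.10 to 0.13) and ARID5A (-0.11 to 0.13). The log2 level of CHD1 over CHD2 was -0.083 with the longest transcript as length, an alternative chosen after seeing the data. The 10 ratios between members kept the direction of their difference between label times with 0.5 reads added; leaving out a library could not turn it, since the label times overlap in no pair. The median rate percentile of members was 63.4 among protein-coding genes. Depth limits the low genes: 3 reads in a library are 0.594 to 0.691 CPM.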
